A study of Mus musculus with 12 samples.

Results

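Ccdc71 and 9 genes that lie beside it on mouse chromosome 9 were followed across 12 libraries of ribosome-associated RNA from parvalbumin interneurons. Ccdc71 was chosen by its measured level, which was low in single-housed Nptx2 KO libraries, and the 9 others, Klhdc8b, Lamb2, Usp19, Qrich1, Impdh2, Ndufaf3, Wdr6, P4htm and Arih2, because of their position. The question was whether these neighbours were low in the same libraries. Of the 10 genes 9 had values, among 13190 genes in the table, and the same 9 were among the 12716 genes tested, which reached an FPKM of 1 or more in 3 or more libraries. Lamb2, which encodes the beta-2 chain of the basement membrane protein laminin, was not analysed here.

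The libraries came from the cortex of C57BL/6 mice. All of them, controls included, carried Cre at the parvalbumin locus on 1 allele (PV-Cre k/+) and the RiboTag allele on both (RiboTag k/k). In such mice Cre switches on a tagged ribosomal protein, so that ribosomes of parvalbumin cells, and the RNA they carry, can be pulled down. There were 4 groups of 3 libraries: single-housed Nptx2 KO, group-housed Nptx2 KO, single-housed wild type and group-housed wild type. Housing began at weaning and lasted at least 4 weeks, the labels call single housing social stress, and they state 3 biological replicates per group without ages. The table names libraries by barcode and group, with no replicate number, so barcodes are used below.

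Genes packed closely on a chromosome often share open chromatin and nearby regulatory sequence, and their transcripts may overlap or start close to each other. The level of 1 gene can then move with that of the next, and overlapping transcripts can also take each other's reads. Ribosome-associated RNA measures transcripts bound to ribosomes, so a level reflects both the abundance of a transcript and its loading.

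Several facts of the libraries bear on what follows. Values are log2(FPKM + 1), already quantile normalized, so depth is unknown and each library sums to 412903 FPKM. Nptx2 itself stood at 2.37 to 2.74 in the 6 libraries labelled KO and at 2.23 to 2.62 in the 6 of wild type, so its level does not tell the genotypes apart, and the labels alone give the genotype. Pvalb, which encodes parvalbumin, ranged over 9.65 to 10.28. Slc17a7, the vesicular glutamate transporter of excitatory neurons, was also present at 5.48 to 5.79, so RNA of other cells was not absent. Y-linked transcripts were at or near 0 in the single-housed KO library CAGATC and in all 6 group-housed libraries, and were present in the other 5 single-housed libraries. Amino acid response genes averaged 4.36 to 4.64 in 5 libraries, including CTTGTA and AGTCAA of single-housed KO, and 3.24 to 3.45 in the other 7.

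Ccdc71 (ENSMUSG00000049305, GRCm38 chromosome 9, 108460527 to 108465938, plus strand) encodes a protein with a predicted coiled coil. In GENCODE M21 it has 3 transcripts, each with a short first exon and a second exon that holds all of the coding sequence. In the longest transcript that second exon runs from 108462938 to 108465938, 3001 bases, and the coding part from 108462990 to 108464288. Klhdc8b (108447636 to 108461581, minus strand) starts inside Ccdc71 and runs away from it, so that the gene bodies overlap by 1055 bases on opposite strands. The exons of the 2 genes share 220 bases, 6.73% of the exonic sequence of Ccdc71, and 0 of them fall in its second exon. Of the 15 annotated Klhdc8b transcripts 6 reach into Ccdc71, and none of their coding exons does. The map of annotated transcripts shows this head-to-head arrangement.

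**Figure D1:**
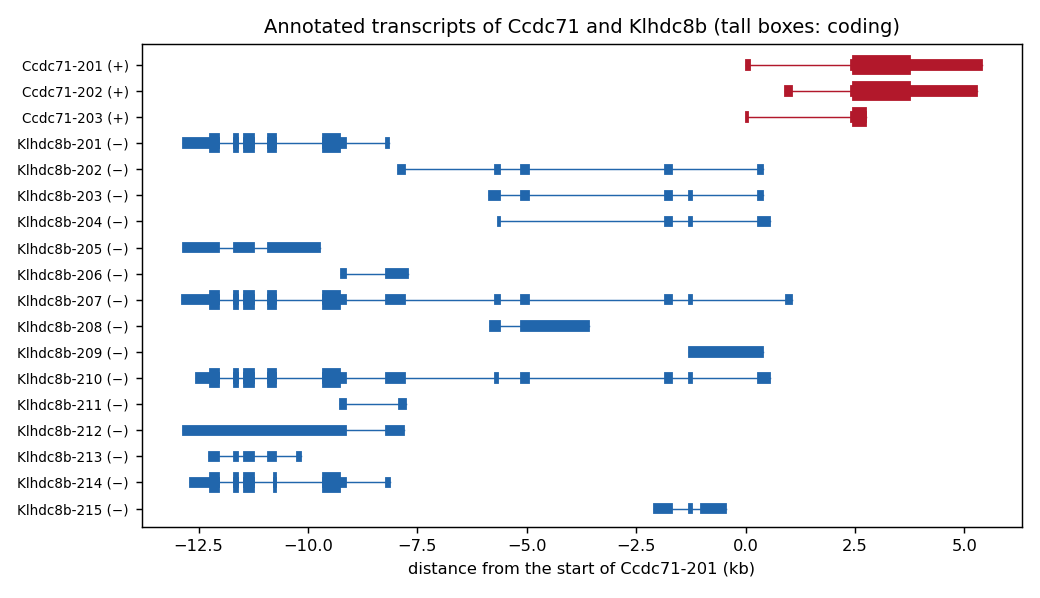
Annotated transcripts of Ccdc71 (red, plus strand) above those of Klhdc8b (blue, minus strand), by distance from the start of Ccdc71 in kb; boxes are exons and tall boxes coding sequence. Of the 15 Klhdc8b transcripts 6 begin to the right of 0, within Ccdc71, and the large coding exon of Ccdc71 is free of Klhdc8b exons.

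The other neighbours follow to one side of Ccdc71, with no gene body overlapping it. Lamb2 (108479736 to 108490530), Usp19 (ENSMUSG00000006676, 108490602 to 108502337), Qrich1 (ENSMUSG00000006673, 108516806 to 108560163) and Impdh2 (ENSMUSG00000062867, 108560286 to 108565584) lie on the plus strand. Ndufaf3 (ENSMUSG00000070283, 108565537 to 108567434), Wdr6 (ENSMUSG00000066357, 108572311 to 108578739), P4htm (ENSMUSG00000006675, 108578862 to 108597667) and Arih2 (ENSMUSG00000064145, 108602942 to 108649386) lie on the minus strand. The start of Klhdc8b (ENSMUSG00000032609) is 1.05 kb from that of Ccdc71, and the start of Arih2, the farthest, is 189 kb away.

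The sequences around these starts are shown because the start regions of Ccdc71 and Klhdc8b are where those genes meet. All 10 members matched a RefSeq promoter window (GRCm38.p6, 250 bases before to 50 after a start), 13 windows in all. RefSeq places 1 start of Ccdc71 at 108460553, close to the GENCODE start, and another at 108452502, which lies within Klhdc8b. Klhdc8b has RefSeq starts at 108461581 and 108452801 on the opposite strand, so each start of Ccdc71 has a start of Klhdc8b near it. Each window is written 5′ to 3′ along its gene, with capitals marking matches on either strand to the motifs listed after them.
Ccdc71, chr9:108460303-108460602, plus strand: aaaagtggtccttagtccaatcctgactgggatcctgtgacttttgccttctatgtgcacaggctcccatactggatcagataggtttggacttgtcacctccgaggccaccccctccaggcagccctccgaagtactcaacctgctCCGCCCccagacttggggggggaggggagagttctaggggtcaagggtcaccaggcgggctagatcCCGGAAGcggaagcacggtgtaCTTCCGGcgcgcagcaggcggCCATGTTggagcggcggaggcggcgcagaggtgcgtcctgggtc
Ccdc71 upstream start, chr9:108452252-108452551, plus strand: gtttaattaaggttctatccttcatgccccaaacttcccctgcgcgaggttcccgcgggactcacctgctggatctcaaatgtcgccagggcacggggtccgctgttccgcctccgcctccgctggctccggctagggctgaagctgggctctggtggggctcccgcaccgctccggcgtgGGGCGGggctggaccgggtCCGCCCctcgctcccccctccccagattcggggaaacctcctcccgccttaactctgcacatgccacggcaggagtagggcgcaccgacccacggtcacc
Klhdc8b, chr9:108461532-108461831, minus strand: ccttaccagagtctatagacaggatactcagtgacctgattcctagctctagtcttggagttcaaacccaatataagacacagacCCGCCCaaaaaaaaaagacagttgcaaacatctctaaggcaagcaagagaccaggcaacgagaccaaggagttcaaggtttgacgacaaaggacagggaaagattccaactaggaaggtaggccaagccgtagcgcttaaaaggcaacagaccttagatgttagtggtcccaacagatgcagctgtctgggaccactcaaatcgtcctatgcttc
Klhdc8b second start, chr9:108452752-108453051, minus strand: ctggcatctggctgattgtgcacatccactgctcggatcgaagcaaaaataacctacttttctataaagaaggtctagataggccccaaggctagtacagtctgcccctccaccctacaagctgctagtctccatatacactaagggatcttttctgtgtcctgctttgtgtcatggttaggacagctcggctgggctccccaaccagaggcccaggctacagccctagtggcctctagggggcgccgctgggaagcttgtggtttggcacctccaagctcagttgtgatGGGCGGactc

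The motifs searched on both strands were the GC box GGGCGG, the ETS core CCGGAAG, the YY1 core CCATNTT, the E-box CACGTG and the cyclic AMP response element TGACGTCA. The window at the main start of Ccdc71 held 1 GC box, 2 ETS cores and 1 YY1 core. That at its upstream start held 2 GC boxes, and each of the 2 Klhdc8b windows held 1. Of all 32851 RefSeq windows of this length 35.7% held a GC box, 8.86% an ETS core, 16.1% a YY1 core, 7.15% an E-box and 1.79% a cyclic AMP response element. Among the 13 windows of the members 9 held a GC box, 3 an ETS core, 4 a YY1 core, 1 an E-box and 0 a cyclic AMP response element. The main and upstream windows of Ccdc71 were 62.3% and 67.7% G or C, and the 2 of Klhdc8b, in the order printed, 47.0% and 54.3%. A match describes letters in a window and does not show that a factor binds there.

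Ccdc71 was low in the 3 libraries that chose it and steady elsewhere. In single-housed KO it stood at 1.56 in CAGATC, 2.32 in CTTGTA and 1.59 in AGTCAA. In group-housed KO it stood at 3.83, 3.81 and 3.94. The single-housed wild-type libraries had 3.94, 3.94 and 3.90, and those of group-housed wild type 3.92, 3.90 and 3.76 (log2(FPKM + 1)). The 3 low values did not overlap with the other 9, which together spanned 3.76 to 3.94. As FPKM, the single-housed KO libraries had 1.94, 3.99 and 2.02, and the other 9 had 12.6 to 14.3. CTTGTA was the highest of the 3 and still lay 1.44 log2 below the lowest of the rest.

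The group means were 1.82 ± 0.43 in single-housed KO, 3.86 ± 0.07 in group-housed KO (SD, n = 3 each). In wild type they were 3.92 ± 0.02 with single and 3.86 ± 0.09 with group housing (SD, n = 3 each). The difference was −2.04 for single over group housing in KO and −2.10 for KO over wild type in single housing. These values chose the gene and are given as a description, with no test. Among the 12716 genes it was the ninth most negative difference of the KO housing comparison, in which 9 genes stood at −2 or lower.
The comparisons that leave out single-housed KO did not choose it, though they share group-housed KO and single-housed wild type with those that did. There Ccdc71 differed by 0.06 ± 0.17 for single over group housing in wild type and by −0.0023 ± 0.17 for KO over wild type in group housing (log2 ± SE, limma, adjusted p = 0.912 and 1). The 95% intervals of these differences ran from −0.31 to 0.43 and from −0.37 to 0.37. The SE pools the spread of all groups, single-housed KO included, where the SD of 0.43 was the largest. Neither p-value is therefore independent of the choice of the gene.

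The values that set libraries apart in other ways are given beside the level of Ccdc71, as a description of single libraries, and their part in it was not tested. CAGATC, with Y-linked transcripts at 0, and AGTCAA, with them present, had Ccdc71 at 1.56 and 1.59. The difference between CAGATC and the 3 group-housed KO libraries, all with Y-linked transcripts at 0, was −2.30. CAGATC had low and AGTCAA high amino acid response genes, at averages of 3.27 and 4.37. The group-housed libraries CGATGT (KO), CCGTCC and GTCCGC (wild type), where these genes were high too, had Ccdc71 at 3.83, 3.90 and 3.76. Parvalbumin interneuron markers summed to 3359 to 3709 FPKM in single-housed KO, 3549 to 3656 in group-housed KO, 3506 to 3672 in single-housed wild type and 3479 to 3633 in group-housed wild type. Summed markers of excitatory neurons, astrocytes, oligodendrocytes, microglia, endothelium, mural cells and fibroblasts overlapped between single-housed KO and each other group. Microglia markers, all 4 of 4 listed, came to 9.67 to 12.5 FPKM in single-housed KO, 9.10 to 11.4 in group-housed KO, 10.05 to 10.7 in single-housed wild type and 11.6 to 14.2 in group-housed wild type. For endothelium 1 of 3 markers had a value, Cldn5, at 2.24 to 2.81 FPKM in single-housed KO, 1.53 to 2.45 in group-housed KO, 2.13 to 2.45 in single-housed wild type and 1.999 to 2.49 in group-housed wild type. In bulk libraries fewer cells with a transcript and less of it per cell cannot be told apart.

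The neighbours did not show the low level of Ccdc71. In single over group housing in KO, 0 of the 8 measured neighbours passed the test (limma, adjusted p of at least 0.995), where 0.00786% of all tested genes did, that is 1 gene, Ccdc71, which this contrast had served to choose. By value 4 were higher and 4 lower, with a median difference of −0.012 beside 0.00077 over all tested genes, and a range of −0.13 to 0.38. Without adjustment 1 neighbour, Ndufaf3, had a p under 0.05 and was higher, where 4.36% of all genes were under 0.05. The same gene was the 1 neighbour whose groups did not overlap, against 6.8% of all genes. The most negative end of the 8 intervals of 95% was −0.66, for Klhdc8b, so that none reached the −2.04 of Ccdc71. The plot of values by group shows the contrast between Ccdc71 and the rest.

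**Figure D2:**
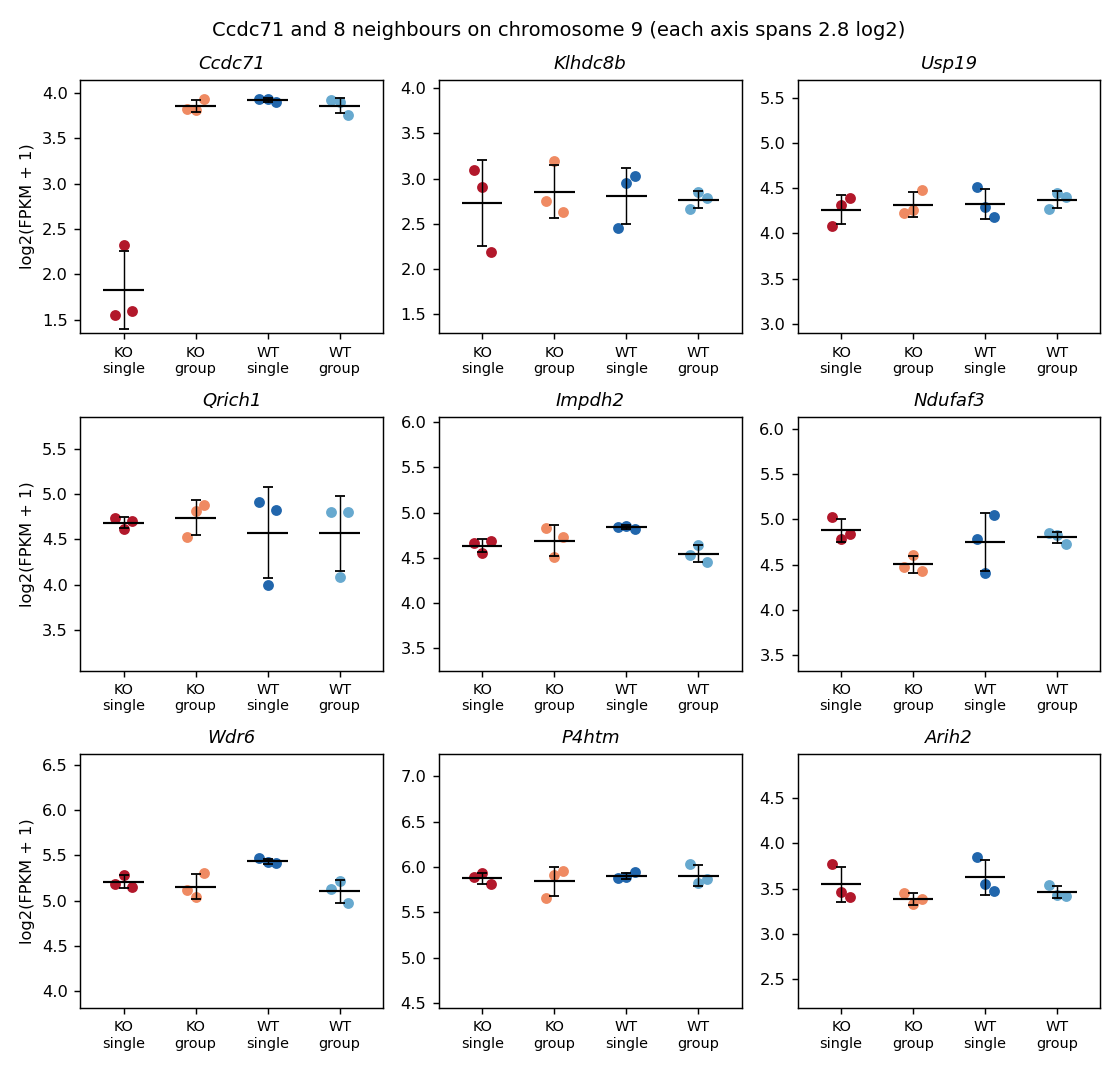
Level of Ccdc71 and its 8 measured neighbours as log2(FPKM + 1) in single-housed KO, group-housed KO, single-housed wild type and group-housed wild type; points are libraries, bars the mean and SD of 3, and every axis spans the same height. The 3 single-housed KO libraries of Ccdc71 sit at 1.56 to 2.32, below all others, and no neighbour has such a gap.

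Klhdc8b, a kelch-repeat protein found at the midbody of dividing human cells, is the neighbour that overlaps Ccdc71. Its level was 3.09 in CAGATC, 2.91 in CTTGTA and 2.19 in AGTCAA of single-housed KO, against 2.75, 3.19 and 2.63 in group-housed KO. In wild type it was 2.45, 2.95 and 3.02 in single housing and 2.66, 2.85 and 2.78 in group housing. It varied from library to library within 3 of the groups, and CAGATC, where Ccdc71 was lowest, was the second-highest of all 12 for Klhdc8b, while AGTCAA was the lowest. The difference in KO was −0.13 ± 0.24 for single over group housing (95% interval −0.66 to 0.40), and −0.08 ± 0.24 for KO over wild type in single housing (limma, adjusted p = 0.995 and 0.951).

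Usp19 and Arih2 act on ubiquitin, Usp19 as a deubiquitinase, of which a form sits in the endoplasmic reticulum membrane, and Arih2 as a RING-between-RING ligase that works with cullin-RING complexes. Usp19 lay at 4.08, 4.31 and 4.39 in single-housed KO and at 4.22, 4.25 and 4.48 in group-housed KO. It lay at 4.51, 4.29 and 4.18 in single-housed and at 4.26, 4.45 and 4.397 in group-housed wild type. All 4 groups overlapped, and the KO housing difference was −0.06 ± 0.11. Arih2 lay at 3.77, 3.46 and 3.41 in single-housed KO and at 3.46, 3.33 and 3.38 in group-housed KO. It lay at 3.85, 3.55 and 3.48 in single-housed and at 3.55, 3.43 and 3.42 in group-housed wild type. A high value in 1 library, CAGATC in KO and TGACCA in wild type, set the mean of each single-housed group of Arih2 apart, and its difference was 0.16 ± 0.11 in KO and 0.16 ± 0.11 in wild type (adjusted p = 0.995 and 0.581). Transcripts of Arih2 share up to 1482 bases at 97.6% identity with Gm12263, so its value may hold reads of that copy.

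Qrich1, a glutamine-rich transcription factor that acts in the endoplasmic reticulum stress response of human cells, had its low values in other libraries than Ccdc71. It stood at 4.74, 4.61 and 4.70 in single-housed KO and at 4.52, 4.82 and 4.88 in group-housed KO. In wild type it stood at 4.91, 3.99 and 4.82 in single housing and at 4.80, 4.08 and 4.80 in group housing. The libraries ACAGTG and CCGTCC, 1 of each wild-type group, lay at 3.99 and 4.08, 0.44 log2 under the next library. Its KO housing difference was −0.05 ± 0.25, with an SE that pools the spread of all groups, these 2 libraries included. Qrich1 shares 458 exonic bases, 5.78% of its exons, with Gm37678 on the same strand, so its value may include reads of Gm37678.

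Impdh2, the rate-limiting enzyme of guanine nucleotide synthesis, and Wdr6, the partner of the methyltransferase FTSJ1 on transfer RNA in human cells, had their highest group means in single-housed wild type. Impdh2 was 4.67, 4.55 and 4.68 in single-housed KO and 4.83, 4.51 and 4.73 in group-housed KO. It was 4.85, 4.85 and 4.82 in single-housed wild type, where the 3 libraries lay close together, against 4.54, 4.64 and 4.46 in group-housed wild type. Wdr6 was 5.18, 5.29 and 5.15 in single-housed KO and 5.12, 5.03 and 5.31 in group-housed KO. It was 5.47, 5.42 and 5.41 in single-housed wild type, against 5.12, 5.22 and 4.97 in group-housed wild type. For both genes the wild-type groups did not overlap, with 3 of 3 single-housed libraries above the group-housed ones.

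In single over group housing in wild type, Impdh2 was at 0.30 ± 0.08 and Wdr6 at 0.33 ± 0.08, and neither passed (limma, adjusted p = 0.240 and 0.232). They were the 2 of 8 neighbours with an unadjusted p under 0.05, where 12.3% of all genes were, and the 2 whose groups did not overlap, where 21.9% of all genes did not. Of the 8 neighbours 0 passed there, while 0.0393% of all genes passed and 0.0315% passed as lower. In KO over wild type in single housing, which shares the single-housed wild-type libraries, Impdh2 was at −0.21 ± 0.08 and Wdr6 at −0.23 ± 0.08 (adjusted p = 0.621 and 0.576). Both again had groups that did not overlap, 2 of 8 neighbours beside 15.8% of all genes in either direction and 8.06% lower, and 2 of 8 had an unadjusted p under 0.05 beside 7.93%. None of the 8 passed, beside 0.0393% of all genes, or 0.0315% as lower. By value 2 of the 8 were higher and 6 lower, with a median of −0.073 beside −0.0027 over all tested genes. Single housing in wild type coincides with Y-linked signal, so the housing and the Y-linked split of those libraries cannot be told apart. Impdh2 shares 1545 bases at 99.7% identity with the pseudogene Impdh2-ps, and Wdr6 shares 383 exonic bases, 9.20% of its exons, with Dalrd3 on the other strand, so both values may include reads of these partners.

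Ndufaf3, an assembly factor of respiratory complex I, was higher by value in single-housed than in group-housed KO. Its single-housed KO values overlapped with those of both wild-type groups. It was 5.02, 4.78 and 4.84 in single-housed KO, above the 4.48, 4.604 and 4.43 of group-housed KO in 3 of 3 libraries. It was 4.78, 4.41 and 5.05 in single-housed wild type and 4.85, 4.82 and 4.73 in group-housed wild type. The KO housing difference was 0.38 ± 0.14 and that of KO over wild type in group housing −0.30 ± 0.14 (limma, adjusted p = 0.995 and 1). Group-housed KO, low in both, is shared by these comparisons. In KO over wild type in group housing 0 of 8 neighbours passed, as did 0% of all genes, 0 of 8 had an unadjusted p under 0.05 beside 3.66%, and Ndufaf3 was the 1 neighbour without overlap beside 7.01%.

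P4htm, a transmembrane prolyl hydroxylase that acts on hypoxia-inducible factor, was the steadiest and the highest of the group. It was 5.88, 5.93 and 5.81 in single-housed KO, 5.66, 5.91 and 5.96 in group-housed KO, 5.88, 5.89 and 5.94 in single-housed wild type and 6.03, 5.82 and 5.86 in group-housed wild type. Its 12 values spanned 0.37 log2, beside 2.38 for Ccdc71 and 1.003 for Klhdc8b, and its KO housing difference was 0.03 ± 0.08. By group mean, on the per-length log2(FPKM + 1) scale, P4htm was highest and Wdr6 next in all 4 groups, while Ndufaf3, Impdh2 and Qrich1 changed places between groups and Usp19 came after them. The 3 lowest genes in group-housed KO were Ccdc71 at 3.86, Arih2 at 3.39 and Klhdc8b at 2.86, and their order was the same in both wild-type groups. In single-housed KO it was Arih2 at 3.55, Klhdc8b at 2.73 and Ccdc71 at 1.82. Over all libraries Ndufaf3, Impdh2 and Qrich1 averaged 4.73, 4.68 and 4.64, closer to each other than their SDs of 0.21, 0.14 and 0.30.

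**Figure D3:**
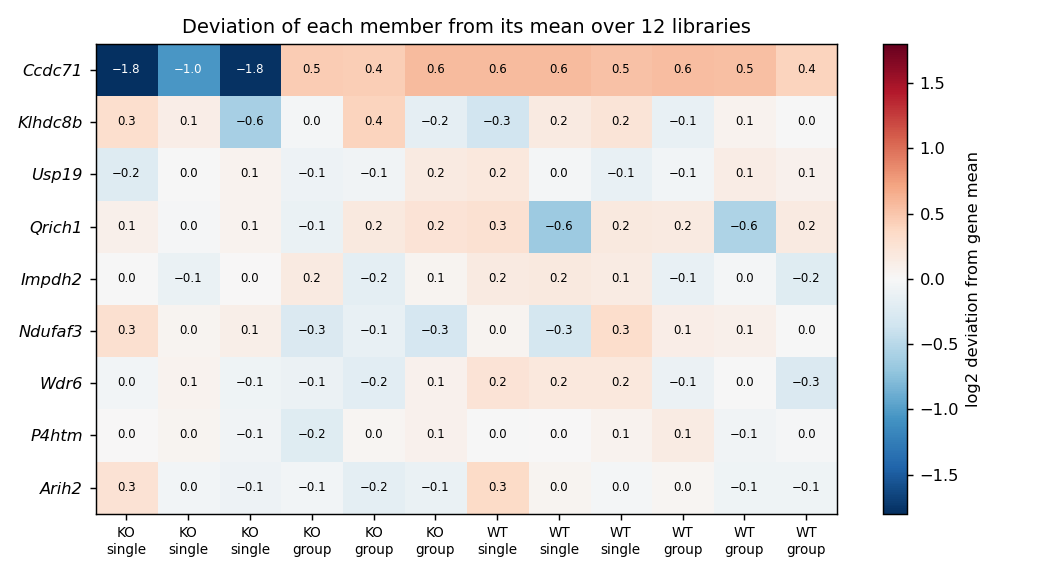
Deviation of each of the 9 measured genes from its own mean over the 12 libraries, in log2, with rows in the order along the chromosome after Ccdc71; columns are the libraries of single-housed KO, group-housed KO, single-housed wild type and group-housed wild type. The 3 single-housed KO cells of Ccdc71 are dark blue, and no other gene is low in all 3.

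Levels can also be set against the neighbours within each library. The median of the 8 neighbours was 4.58 to 4.70 in single-housed KO, 4.4995 to 4.61 in group-housed KO, 4.35 to 4.82 in single-housed wild type and 4.54 to 4.67 in group-housed wild type. Ccdc71 lay under that median by 2.26 to 3.15 in single-housed KO, by 0.67 to 0.74 in group-housed KO, by 0.41 to 0.92 in single-housed wild type and by 0.64 to 0.83 in group-housed wild type. The ranges of the neighbours' median overlapped between the groups, so this distance restates the level of Ccdc71 that chose it and is no separate result.

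Whether the housing difference depended on genotype was asked by the interaction. For the neighbours 0 of 8 passed (limma, adjusted p of at least 0.646), where 0.00786% of all genes did, and 3 of 8 had an unadjusted p under 0.05, where 7.71% of all genes did. The 3 were Impdh2 at −0.35 ± 0.12, Ndufaf3 at 0.43 ± 0.19 and Wdr6 at −0.28 ± 0.11. The negative sign of Impdh2 and Wdr6 came with their high group means in single-housed wild type, and the positive sign of Ndufaf3 with its low values in group-housed KO. In the authors' deposited table, which gives KO against wild type only, the adjusted p of the 8 neighbours was 1 in group housing and 0.602 to 0.954 in single housing.

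The wider region was taken as all other tested genes whose start lies within 500 kb of that of Ccdc71, 24 genes. In single over group housing in KO 0 of 24 passed (limma, beside 0.00786% of all genes), 0 had an unadjusted p under 0.05 (beside 4.36%), 12 were higher and 12 lower by value, and the median was −0.00015. In 2 of 24 the groups did not overlap, each higher in single-housed KO, a share near the 6.8% of all genes. The smallest p among lower genes was that of Prkar2a, a regulatory subunit of protein kinase A, at −0.14 ± 0.07, and among higher genes that of Rhoa, a small GTPase that controls actin, at 0.07 ± 0.04 (unadjusted p = 0.0549 and 0.0936). Within 1000 kb 0 of 44 genes passed. In KO over wild type in single housing 0 of 24 passed, beside 0.0393% of all genes. By value 9 were higher and 15 lower, with a median of −0.052. There 1 of 24 had an unadjusted p under 0.05, beside 7.93%, and in 2 the groups did not overlap, each lower, beside 8.06%. The 1 was Qars, 47 kb from Ccdc71, at −0.37 ± 0.11 (limma, adjusted p = 0.567). Its housing difference was −0.07 ± 0.11 in KO and 0.30 ± 0.11 in wild type. The plot by distance places the housing differences around Ccdc71.

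**Figure D4:**
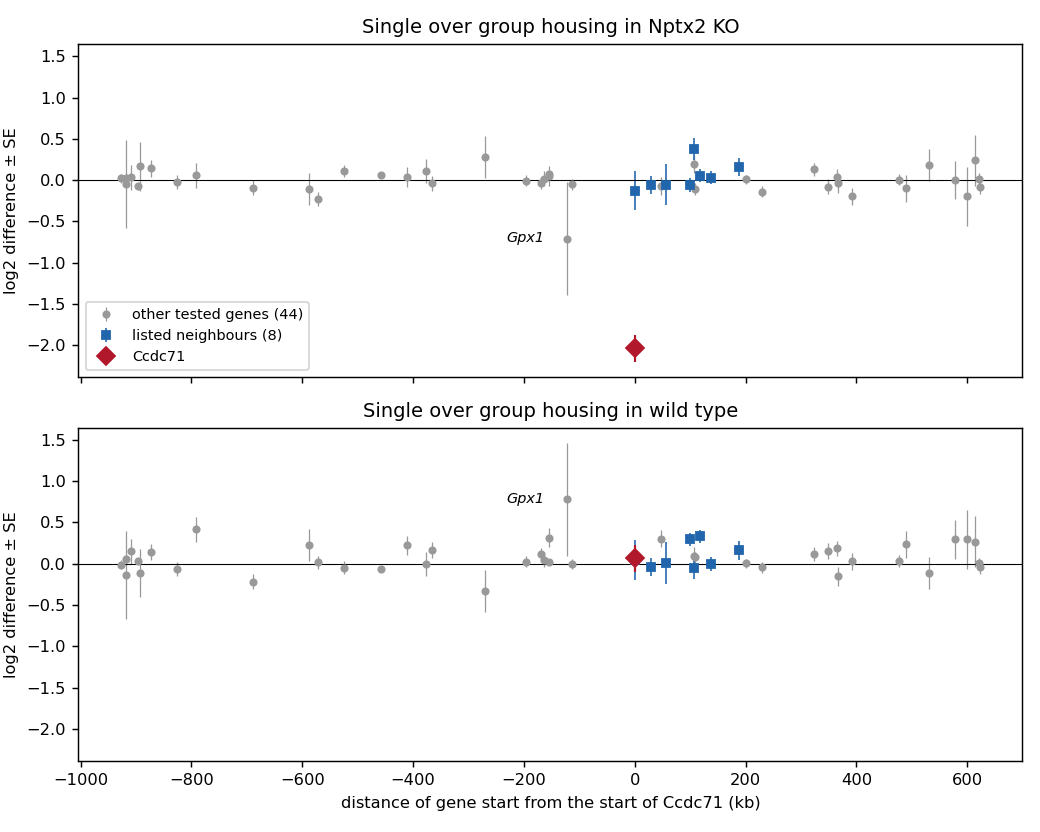
Difference of single over group housing (log2 ± SE) in KO above and wild type below. The horizontal axis gives the distance of each gene's start from that of Ccdc71 in kb. Red is Ccdc71, blue the 8 listed neighbours and grey other tested genes within 1000 kb. Not all 44 of these are drawn. In KO Ccdc71 sits at −2.04, and the next lowest gene, Gpx1, at −0.71 with an SE of 0.68.

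Gpx1, which encodes the selenoprotein glutathione peroxidase and starts 122 kb before Ccdc71, was named after its values were seen, because it too had separate levels. It stood at 5.95, 5.70 and 3.48 in single-housed KO, at 5.61, 5.89 and 5.75 in group-housed KO, at 3.49, 5.79 and 3.601 in single-housed wild type and at 3.57, 3.35 and 3.61 in group-housed wild type. Thus 6 libraries were high and 6 low, the high ones at 5.61 to 5.95 and the low ones at 3.35 to 3.61. In group housing the split followed the genotype, with 3 of 3 KO libraries high and 3 of 3 wild-type libraries low, while in single housing both genotypes held high and low libraries. Since the gene was chosen for this split, its values are a description, with no test.

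**Figure D5:**
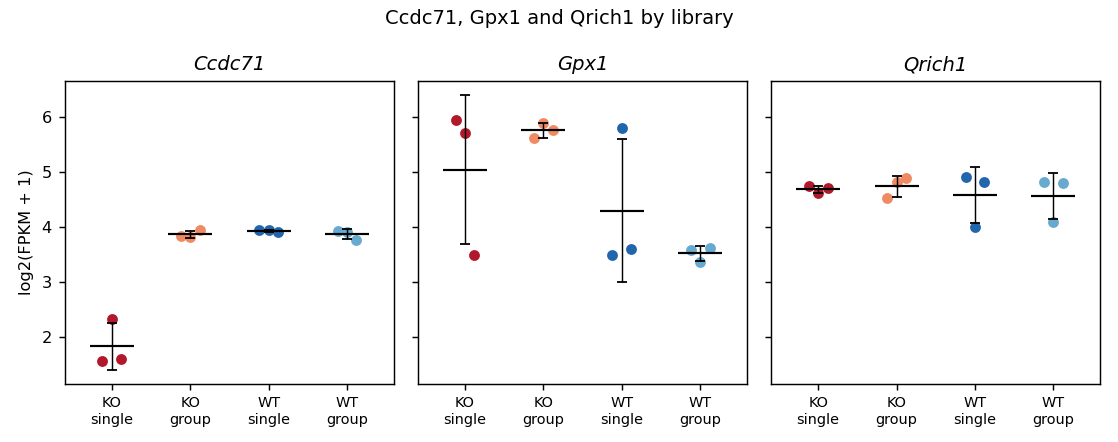
Levels of Ccdc71, Gpx1 and Qrich1 as log2(FPKM + 1) in the 4 groups, with the mean and SD of 3 libraries, on a shared axis. Ccdc71 is low in single-housed KO alone, Gpx1 is split in both single-housed groups, and Qrich1 is low in 1 library of each wild-type group.

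Genes with such separate levels were counted across the table, by a definition chosen after these values were seen. A gene counted when its 12 sorted values held a gap of at least 1 log2 with at least 2 libraries on either side. Of 12713 tested genes, Y-linked ones left out, 238 or 1.87% did, and within 500 kb 2 of 33 tested genes did, Ccdc71 and Gpx1. In 50 of the 238 the smaller side held 3 libraries, and in 1 of the 50, Ccdc71, those 3 were all of 1 group. With a gap of 0.75 log2 there were 356 such genes, 76 with 3 libraries on the smaller side and 2 of these, Ccdc71 and Fos, in which the 3 were a group. With a gap of 1.5 log2 there were 101, 22 and 0, since the gap of Ccdc71 is 1.44. Ccdc71 was chosen for its level in single-housed KO, so its place in these counts was set by that choice and is no separate result. How many genes would line up with a group by chance was not tested. What makes genes fall into separate levels was not tested.

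Genes related to the members, or known to work with them, were read the same way. Of the 18 listed, 14 were tested: Ccdc71l, the relative of Ccdc71, Klhdc8a, the laminin chains Lamb1 and Lamc1, the deubiquitinases Usp4 and Usp15, Impdh1, the complex I assembly factor Ndufaf4, Ftsj1, the collagen prolyl hydroxylases P4ha1 and P4ha2, Arih1, Cul5 and Rnf7. None of the 14 passed in any of the 5 comparisons (limma), in which 0% to 0.0393% of all genes did. In single over group housing in KO 0 of 14 had an unadjusted p under 0.05, beside 4.36% of all genes, with 6 higher and 8 lower by value and a median of −0.031. Ccdc71l was 1.88, 1.72 and 1.805 in single-housed KO and 1.59, 1.77 and 1.73 in group-housed KO, and 1.55, 1.68 and 1.71 in single-housed and 1.84, 1.70 and 1.799 in group-housed wild type. Its 12 values spanned 0.33 log2, and it was not low where Ccdc71 was. With blastn at 95% identity over 50 bases, Ccdc71 transcripts matched 1 other gene, Klhdc8b, over 129 bases on the opposite strand.

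The genes whose levels were most like those of Ccdc71 were taken by Pearson's r over the 12 libraries, a description that rests mostly on the 3 low libraries. They were Atg7 at 0.96, Zkscan4 at 0.88, Kdm1a at 0.87, Fam189a1 at 0.86 and Rad54l2 at 0.83, none within 1000 kb. Atg7, an enzyme of autophagosome formation on chromosome 6, lay at 2.71 to 3.06 in single-housed KO, 3.34 to 3.42 in group-housed KO, 3.33 to 3.46 in single-housed wild type and 3.27 to 3.44 in group-housed wild type. Kdm1a, a histone demethylase on chromosome 4, lay at 4.70 to 4.80 in single-housed KO, 4.91 to 4.98 in group-housed KO, 4.99 to 5.13 in single-housed wild type and 5.02 to 5.07 in group-housed wild type. Rad54l2, a helicase-like protein, also lies on chromosome 9, at 106688082 to 106789194. Its level was 1.46 to 1.49 in single-housed KO, 1.60 to 1.67 in group-housed KO, 1.61 to 1.70 in single-housed wild type and 1.53 to 1.66 in group-housed wild type. Zkscan4, a zinc finger protein encoded on chromosome 13, lay at 1.72 to 1.77 in single-housed KO, 1.86 to 1.89 in group-housed KO, 1.88 to 1.95 in single-housed wild type and 1.82 to 1.97 in group-housed wild type. All 4 of these genes were lower in the 3 single-housed KO libraries than in the other 9, by less than Ccdc71, while Fam189a1, on chromosome 7, ranged from 2.10 to 3.93 in single-housed KO. The 5 genes were picked by r over these same libraries, which favours such a fall, so it is no separate result. Of all tested genes 3.33% were lower without overlap in single over group housing in KO, and 8.06% in KO over wild type in single housing. Over the other 9 libraries r was 0.60 for Atg7, 0.64 for Zkscan4, 0.27 for Kdm1a, −0.56 for Fam189a1 and 0.08 for Rad54l2. The 8 neighbours had an r of −0.44 for Ndufaf3 to 0.31 for Usp19 over all 12.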

How the data were processed

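Per the labels' protocols, ribosome-associated RNA was purified from cortex and made into stranded mRNA libraries. The submitters' processing notes list the tools HISAT2, StringTie and limma and the build GRCm38, with versions and use of strand not given in the sources used here. The authors deposited log2(FPKM + 1) values, together with p-values and score values (moderated t and F statistics) of their own comparisons, per the file headers. Repeating quantile normalization moved no deposited value by more than 0.0322 log2, so the values were already normalized, differences in overall distribution are removed, and no counting error can be given. No 2 libraries were identical.

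A mean per group was fitted to all 12 libraries with limma 3.58.1 in R 4.3.3 (eBayes, trend on; residual degrees of freedom 8, prior 2.18), with Benjamini-Hochberg adjustment over 12716 genes in each of 5 comparisons and a threshold of 0.05. A p-value sets a difference of group means against the spread between libraries, pooled over all 4 groups and moderated across genes. A log2 difference on this scale, with its pseudocount of 1, understates changes of low genes. The fit was tested on simulated data. GENCODE M21 (GRCm38) held 13131 of the gene IDs and lacked 59, promoters were taken from RefSeq GRCm38.p6, and transcripts were compared with BLAST 2.17.0. Members and lists were chosen with earlier results of these data known. Named genes were the members, the gene with the smallest p per direction within 500 kb, the 5 with the highest correlation to Ccdc71 and 18 relatives and partners. Gpx1 and Qars were added after their values were seen.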

Additional observations from a re-analysis of the deposited data

How the results depend on the processing

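The difference of Ccdc71 for single over group housing in KO was −2.04 and stayed between −2.39, with a pseudocount of 0.1, and −1.90, without CAGATC. It was the same without the filter on low values and without the variance trend. The count of neighbours that passed stayed at 0 in all 5 comparisons, and that of genes within 500 kb at 0 in single over group housing in KO, under every alternative run: these 3 settings, the compared groups alone (not run for the interaction), a term for Y-linked signal, windows of 100 and 1000 kb, and each library left out. The Y-linked term was set in every comparison by CAGATC against CTTGTA and AGTCAA, since only single-housed KO held both kinds of library. With it 6 differences changed sign, none past the threshold. In single over group housing they were Klhdc8b in KO (0.23) and, in wild type, Ccdc71 (−0.34), Ndufaf3 (0.16) and P4htm (0.010). The others were Usp19 for KO over wild type in single housing (0.022) and for the interaction (0.074). The shifts in wild type thus come from single-housed KO libraries, for Ccdc71 those that chose it, and are no check of the wild-type values. Leaving out 1 library changed the sign of small differences, none past the threshold. For single over group housing in KO these were Impdh2 (−0.15 to 0.014), Klhdc8b (−0.31 to 0.14), P4htm (−0.061 to 0.088), Qrich1 (−0.16 to 0.016), Usp19 (−0.12 to 0.031) and Wdr6 (−0.0067 to 0.13). For KO over wild type in single housing these were Arih2 (−0.19 to 0.031), Klhdc8b (−0.26 to 0.19), Ndufaf3 (−0.037 to 0.28), P4htm (−0.054 to 0.0043), Qrich1 (−0.18 to 0.28) and Usp19 (−0.14 to 0.025). For single over group housing in wild type these were Klhdc8b (−0.063 to 0.22), Ndufaf3 (−0.20 to 0.12), P4htm (−0.045 to 0.059), Qrich1 (−0.23 to 0.30) and Usp19 (−0.14 to 0.029). For KO over wild type in group housing these were Ccdc71 (−0.052 to 0.027), Klhdc8b (−0.077 to 0.21), P4htm (−0.12 to 0.030), Qrich1 (−0.065 to 0.30) and Wdr6 (−0.027 to 0.11). For the interaction these were Arih2 (−0.11 to 0.11), Klhdc8b (−0.35 to 0.10), P4htm (−0.057 to 0.092), Qrich1 (−0.36 to 0.18) and Usp19 (−0.088 to 0.077). No paired analysis was possible because the columns carry no replicate numbers.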
